A study of Solanum lycopersicum with 27 samples.

Results

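The small heat shock protein genes of ripening tomato fruit were followed as 7 listed identifiers, of which 6 were analysed among 34075 genes, and Solyc08g062450 was not analysed here. They were chosen by identifier, with earlier results of these data known. Solyc03g082420 was listed as the plastid protein HSP21. Solyc06g076520, Solyc06g076540, Solyc06g076560 and Solyc06g076570 were listed as a class I cluster, and Solyc08g062340 as class II. Neither the expression table nor the RefSeq gene table used here (assembly SLM_r2.1, in which 0 of the identifiers were found) pairs these identifiers with names, so the class names are those of the list and were not checked. No sequences are shown for the same reason.

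Small heat shock proteins are chaperones that work without ATP: they bind proteins that begin to unfold and hold them until ATP-dependent chaperones of the HSP70 and HSP100 families refold them. Class I and class II proteins act in the cytosol and nucleus, and HSP21 acts in plastids. Plants make them under heat, on the command of heat stress transcription factors, and also without heat at set stages such as seed maturation. In tomato, transcripts of several of them are known to accumulate as the fruit ripens, and HSP21 has been tied to the change of chloroplasts into chromoplasts.

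RNA sequencing of fruits of the cultivar Ailsa Craig, grown without treatment, gave 27 libraries in 9 groups of 3. The ages 25 and 34 days post anthesis (dpa) were both covered for wild type (WT), for the double mutant rin/tdr4-1 and for dml2-3. For rin-1, tdr4-1 and nor-1, each a single mutant, 34 dpa alone was covered, and the labels call this age the breaker stage in every genotype. The proteins affected are all known as regulators of ripening: DML2 removes DNA methylation, the transcription factors RIN and TDR4 belong to the MADS-box family, and NOR belongs to the NAC family. The labels do not say how the alleles were made, nor that replicates came from separate plants, so the p-values below measure only the spread between libraries. Since the identifiers carry no names, the transcripts of the mutated genes did not check the labels.

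Values are FPKM, fragment numbers scaled by the length of the gene and the size of the library. They keep no read numbers, so depth is unknown. The columns summed to between 863193 and 1122755 FPKM. Replicate 3 of dml2-3 at 25 dpa stood apart from replicates 1 and 2 in these genes and in many others, as described below. Results that rest on it are given with and without it. Differences were tested with limma on log2(FPKM + 1) over 18906 genes that reached 1 FPKM in 3 libraries or more, and a gene was called at a Benjamini-Hochberg adjusted p under 0.05. All 6 genes passed this filter. Of these, 5 were above 1 FPKM in all 27 libraries, and Solyc06g076540 in 24, since it was below 1 FPKM in WT at 25 dpa. In whole fruit, fewer cells of a type and less RNA per cell cannot be told apart.

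In WT fruit all 6 genes rose between 25 and 34 dpa, from 15.8-fold to 447-fold, and at 34 dpa together they held 5.16 ± 0.568% of all FPKM (SD, n = 3, as for every ± below), against 0.188 ± 0.0111% at 25 dpa. Solyc03g082420, the plastid gene, was at 12.67, 12.07 and 14.11 FPKM in the 3 WT libraries at 25 dpa and at 6029.01, 5516.17 and 5820.23 FPKM at 34 dpa. The groups lay far apart, and the gene had become the one with the 16th highest mean of the 18906. Its log2 change was 8.70 (SE 0.15, adjusted p = 1.06e-21), or 447-fold in mean FPKM.

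The class I genes started from very different levels. Solyc06g076520 was the highest of them at 25 dpa, with 886.37, 1018.35 and 1044.31 FPKM, and reached 17645.03, 12462.56 and 16588.11 FPKM at 34 dpa. This was the 4th highest mean of all genes, after a log2 rise of 3.97 (SE 0.14, adjusted p = 1.74e-16), the least of the 6 genes as a fold. Solyc06g076560 went from 202.51, 222.56 and 227.78 FPKM to 17030.93, 11574.11 and 14970.25 FPKM, a rise of 6.04 (SE 0.17, adjusted p = 3.57e-18). Solyc06g076570 went from 543.06, 562.47 and 582.55 FPKM to 13770.23, 12504.27 and 11206.88 FPKM, a rise of 4.47 (SE 0.34, adjusted p = 8.3e-11). These 3 genes ended close together, with 11206.88 FPKM as their lowest value in a WT library at 34 dpa. The other class I gene, Solyc06g076540, stayed far below them: it was at 0.78, 0.60 and 0.51 FPKM at 25 dpa and at 138.49, 78.73 and 110.61 FPKM at 34 dpa. Its log2 rise was 6.05 (SE 0.36, adjusted p = 1.89e-12) on the log2(FPKM + 1) scale, which understates the change of a gene below 1 FPKM. The mean FPKM rose 173-fold.

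The class II gene Solyc08g062340 was at 47.16, 47.35 and 66.70 FPKM at 25 dpa and at 4297.00, 3145.54 and 4002.08 FPKM at 34 dpa. Its log2 rise was 6.13 (SE 0.22, adjusted p = 2.18e-16), or 71.0-fold. Over the whole table, 15.3% of the tested genes were called higher in WT at 34 dpa and 61.7% lower, and 35.96% and 38.7% after division by size factors. The median gene differed by -0.51 as deposited and by -0.03 with size factors, while the median of the 6 genes was 6.04 and 6.55. The rise of the 6 genes was thus larger with size factors than as deposited, by about the shift of the median gene. Which scale is nearer to the true levels was not tested, and no call of a rise in WT changed with the scale.

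**Figure D1:**
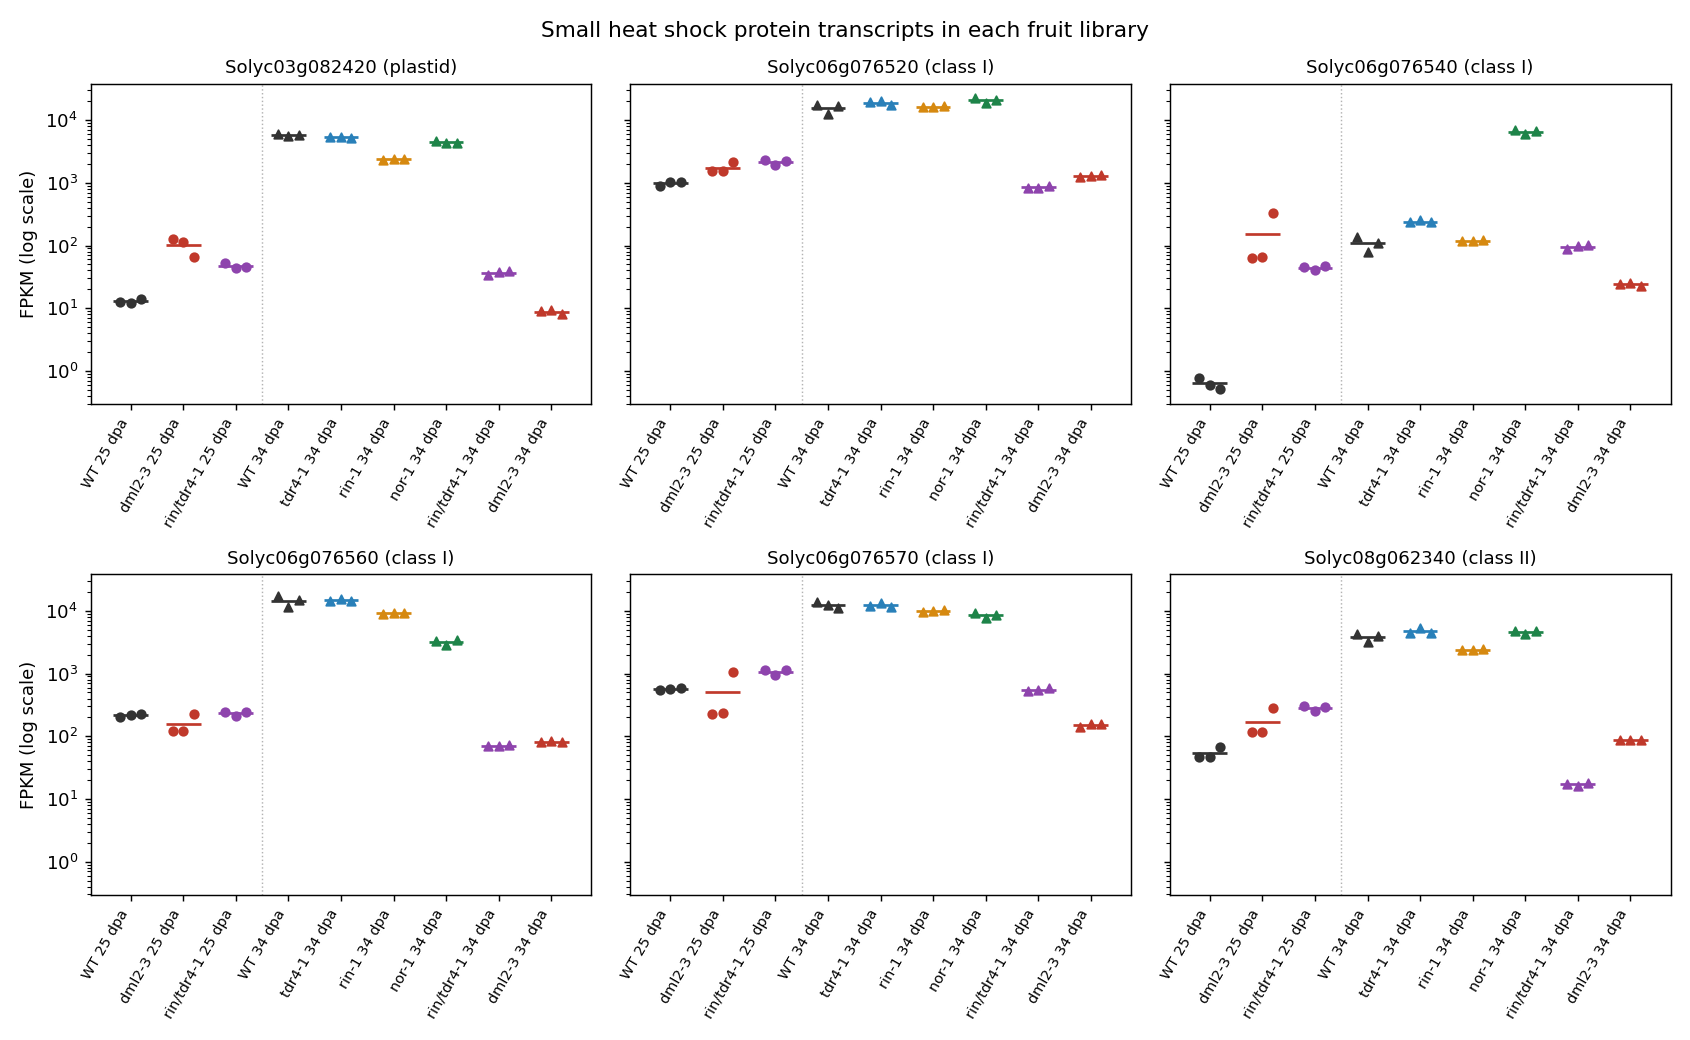
FPKM of the 6 small heat shock protein genes in each of the 27 libraries, on a log axis, with 1 panel per gene and each point 1 library of a group. The 34 dpa groups of WT, tdr4-1, rin-1 and nor-1 sit high in every panel but that of Solyc06g076540, where nor-1 stands alone near 6585 FPKM.

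Within WT at 34 dpa the libraries kept a common order. Replicate 1 was the highest of the 3 in 6 of 6 genes, and replicate 2 the lowest in 5 of 6, the exception being Solyc06g076570. In nor-1 replicate 2 was the lowest in 6 of 6 genes. Other groups had such orders too, with replicate 3 highest in 6 of 6 genes in rin-1 and in rin/tdr4-1 at 34 dpa. Replicate 2 was highest in 6 of 6 genes in tdr4-1 and lowest in 6 of 6 in rin/tdr4-1 at 25 dpa. The order of libraries over all genes was not counted. The share of all FPKM held by the 6 genes ranged accordingly from 4.53% to 5.64% in WT at 34 dpa and from 4.29% to 4.82% in nor-1.

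The dml2-3 mutant did not reach these levels at 34 dpa: all 6 genes were lower than in WT. Solyc03g082420 was at 9.18, 9.32 and 8.03 FPKM, below even the lowest WT library at 25 dpa. It was 655-fold below WT at 34 dpa (log2 difference -9.20, SE 0.15, adjusted p = 4e-22). The 4 class I genes fell short by unequal amounts. Solyc06g076560 was at 80.29, 82.66 and 80.53 FPKM, 179-fold below WT (-7.45, SE 0.17, adjusted p = 8.58e-20), and Solyc06g076570 at 140.64, 158.73 and 155.12 FPKM, 82.5-fold below (-6.35, SE 0.34, adjusted p = 2.02e-13). Solyc06g076520 still held 1238.04, 1304.57 and 1333.16 FPKM, 12.05-fold below WT (-3.57, SE 0.14, adjusted p = 8.85e-16). Solyc06g076540 was at 24.80, 25.48 and 22.61 FPKM, 4.50-fold below (-2.09, SE 0.36, adjusted p = 2.47e-05).

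The class II gene Solyc08g062340 was at 86.32, 88.38 and 86.82 FPKM in dml2-3, 43.8-fold below WT (-5.42, SE 0.22, adjusted p = 1.49e-15). No dml2-3 library overlapped with a WT library in any of the 6 genes. Overlap was not counted over all tested genes, so it is not read as a trait of these 6, here or elsewhere. Lower calls made up 18.0% of all tested genes and higher calls 57.0% (34.7% and 38.02% with size factors), about a median of 0.42, against a median of -5.89 for the 6 genes. Together the 6 genes held 0.187 ± 0.00437% of all FPKM in dml2-3 at 34 dpa.

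In the double mutant rin/tdr4-1 at 34 dpa, 5 of the 6 genes were lower than in WT and Solyc06g076540 was not called. The class II gene Solyc08g062340 was at 17.29, 16.39 and 17.72 FPKM, 223-fold below WT (log2 difference -7.71, SE 0.22, adjusted p = 6.04e-18) and lower than in any other group. Solyc06g076560 was at 69.30, 71.24 and 73.32 FPKM, 204-fold below (-7.63, SE 0.17, adjusted p = 1.06e-19). Plastid gene Solyc03g082420 was at 33.76, 37.96 and 38.61 FPKM, 157-fold below (-7.26, SE 0.15, adjusted p = 3.66e-20). For these 3 genes the libraries of the double mutant lay far below those of WT, with no overlap.

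Of the other class I genes, Solyc06g076570 was at 533.90, 541.87 and 579.62 FPKM, 22.6-fold below WT (-4.49, SE 0.34, adjusted p = 8.56e-11). Solyc06g076520 was at 826.99, 816.63 and 891.84 FPKM, 18.4-fold below (-4.19, SE 0.14, adjusted p = 9.35e-17). Solyc06g076540 was at 88.43, 97.52 and 102.44 FPKM, a range that overlapped with WT, and its difference was -0.15 (95% interval -0.91 to 0.61, adjusted p = 0.724). In this comparison 15.2% of all tested genes were called lower and 61.3% higher (34.2% and 36.7% with size factors), about a median of 0.51. The median of the 6 genes was -5.88.

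**Figure D2:**
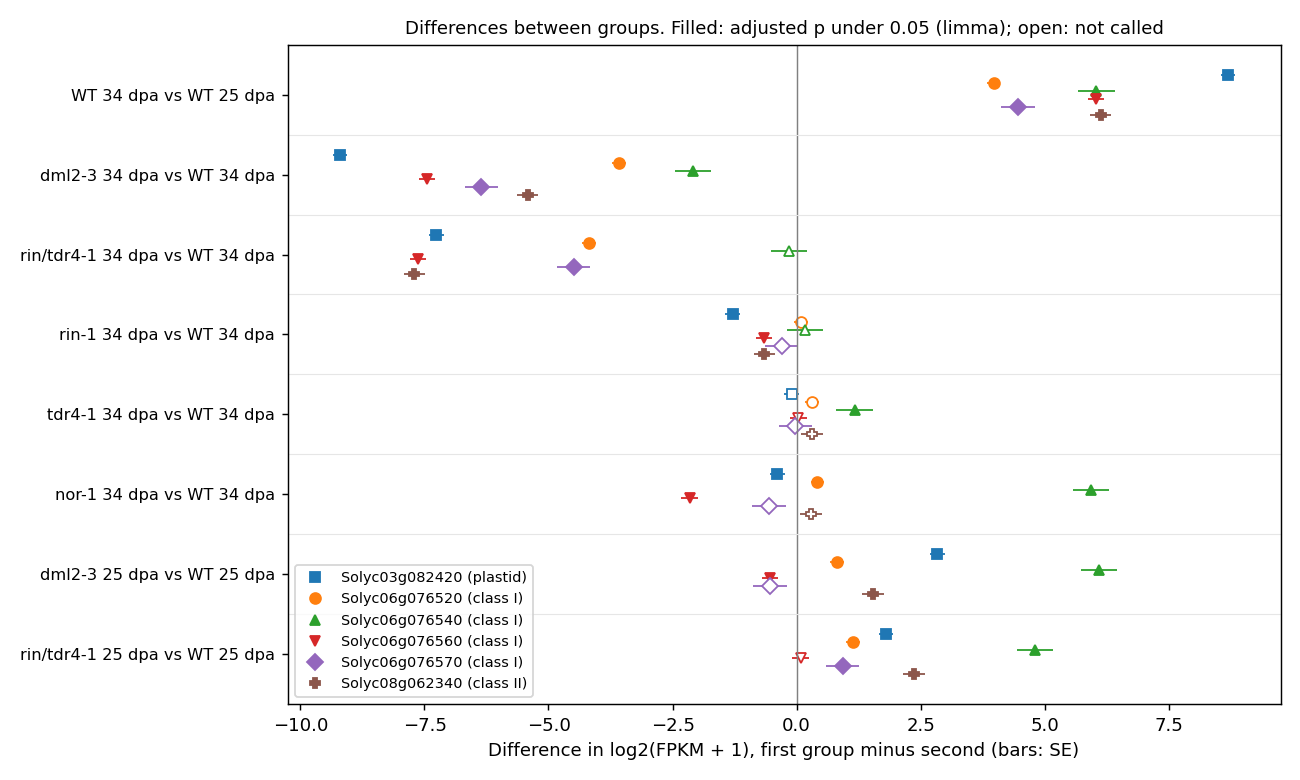
Log2 differences of the 6 genes in the comparisons between groups, with bars for the SE, filled where the adjusted p was under 0.05. The dml2-3 and rin/tdr4-1 points at 34 dpa lie far below 0 except for Solyc06g076540, and the single mutant points lie between -2.16 and 1.17 except for that gene in nor-1 at 5.93.

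The mutants dml2-3 and rin/tdr4-1 at 34 dpa were also compared directly, and 5 of the 6 genes differed, in both directions. The plastid gene Solyc03g082420 was lower in dml2-3 by -1.94 (SE 0.15, adjusted p = 3.3e-10), as were Solyc06g076540 by -1.94 (SE 0.36, adjusted p = 0.0001) and Solyc06g076570 by -1.86 (SE 0.34, adjusted p = 6.67e-05). The class II gene Solyc08g062340 was above rin/tdr4-1 by 2.28 (SE 0.22, adjusted p = 9.9e-09) and Solyc06g076520 by 0.61 (SE 0.14, adjusted p = 0.000662). Over the whole table, 25.1% of the tested genes were higher and 35.7% lower. Solyc06g076560 was 0.18 apart (95% interval -0.16 to 0.53, adjusted p = 0.353), and in a fit to these groups alone, with smaller SE, it was called (adjusted p = 0.0018).

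In rin-1, 3 of the 6 genes were lower than in WT at 34 dpa and 3 were not called, and all were far above their 25 dpa levels in WT. The plastid gene Solyc03g082420 was at 2327.06, 2385.38 and 2401.95 FPKM, less than the lowest WT library by over 2-fold, with a log2 difference of -1.29 (SE 0.15, adjusted p = 1.1e-07). Solyc06g076560 was at 8842.89, 9163.33 and 9358.65 FPKM (-0.65, SE 0.17, adjusted p = 0.00166). Solyc08g062340, of class II, was at 2409.31, 2353.70 and 2490.55 FPKM (-0.65, SE 0.22, adjusted p = 0.0121). The rin-1 and WT libraries of these 3 genes did not overlap. Lower calls made up 20.9% of all tested genes and higher calls 46.2% (33.2% and 34.8% with size factors), about a median of 0.23, against -0.47 for the 6 genes.

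The difference of the other 3 class I genes in rin-1 was not called. It was 0.09 for Solyc06g076520 (95% interval -0.20 to 0.38, adjusted p = 0.584), 0.16 for Solyc06g076540 (-0.60 to 0.92, adjusted p = 0.716) and -0.30 for Solyc06g076570 (-1.004 to 0.40, adjusted p = 0.443). The sign of each of these 3 differences depended on the scaling. With quantile scaling only the call of the plastid gene was left (-0.47, adjusted p = 0.00997), and those of Solyc06g076560 (-0.21, adjusted p = 0.368) and Solyc08g062340 (-0.03, adjusted p = 0.909) ended; the latter also ended without WT replicate 1 (-0.55, adjusted p = 0.0543). When replicate 3 of dml2-3 at 25 dpa was left out of the estimate of the spread, Solyc06g076570 was called (adjusted p = 0.0029).

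In tdr4-1, 1 of the 6 genes was called different from WT. Solyc06g076540 was at 235.73, 253.42 and 233.61 FPKM, above every WT library, a log2 difference of 1.17 (SE 0.36, adjusted p = 0.0153) or 2.20-fold. The plastid gene Solyc03g082420 was at 5446.80, 5487.85 and 5288.05 FPKM, just under the lowest WT library, and differed by -0.10 (95% interval -0.41 to 0.21, adjusted p = 0.671). For the other 4 genes the differences ran from -0.03 for Solyc06g076570 (-0.73 to 0.67) to 0.31 for Solyc08g062340 (-0.14 to 0.76) and Solyc06g076520 (0.02 to 0.60), with adjusted p from 0.0887 to 0.975. Higher calls made up 13.5% and lower calls 22.7% of all tested genes (19.4% and 16.4% with size factors), and the median of the 6 genes was 0.17 against -0.06 overall.

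These counts in tdr4-1 moved with single libraries. Without WT replicate 2, the lowest WT library in 5 of the genes, Solyc06g076540 differed by 0.95 (adjusted p = 0.0799) and limma called 0 genes, with 1 at an unadjusted p under 0.05. Without WT replicate 1, 2 genes were called, with Solyc06g076520 added (0.41, adjusted p = 0.0412). Leaving out replicate 3 of dml2-3 at 25 dpa, 3 were called, with Solyc06g076520 (adjusted p = 0.0208) and Solyc08g062340 (adjusted p = 0.0301) added.

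The nor-1 mutant differed from WT most in the class I cluster. Solyc06g076540, the least expressed of the 6 genes in WT, was at 6892.41, 6041.33 and 6822.07 FPKM, which was 60.3-fold above WT (log2 difference 5.93, SE 0.36, adjusted p = 5.95e-12) and the 9th highest mean of all genes in nor-1. The next highest group for this gene, tdr4-1, averaged 241 ± 10.9 FPKM, lower than nor-1 by a log2 difference of 4.77 (SE 0.36, adjusted p = 3.85e-10). In the same libraries Solyc06g076560 was at 3372.36, 2890.00 and 3410.39 FPKM, 4.50-fold below WT (-2.16, SE 0.17, adjusted p = 2.94e-10). These class I genes thus differed from WT in opposite directions in the same fruit.

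Small differences were called in nor-1 for a further pair of genes. Solyc06g076520 was at 22441.12, 18591.31 and 21034.96 FPKM, the 3rd highest mean of all genes there, a difference of 0.42 (SE 0.14, adjusted p = 0.0117), and the plastid gene Solyc03g082420 was at 4608.35, 4318.62 and 4333.21 FPKM, a difference of -0.39 (SE 0.15, adjusted p = 0.028). Both calls were fragile. The first ended with size factors (0.38, adjusted p = 0.0596), with no filter, in the 2 groups alone, and without WT replicate 2 (0.27, adjusted p = 0.0957) or nor-1 replicate 1 (0.36, adjusted p = 0.0525), while quantile scaling gave 1.35 (adjusted p = 1.65e-06). The second ended under quantile scaling (-0.12, adjusted p = 0.515) and without WT replicate 1 or 3 or nor-1 replicate 2 or 3 (adjusted p from 0.0593 to 0.0772).

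The difference in nor-1 was -0.55 for Solyc06g076570 (95% interval -1.25 to 0.15, adjusted p = 0.165) and 0.29 for Solyc08g062340 (-0.16 to 0.74, adjusted p = 0.258). Leaving replicate 3 of dml2-3 at 25 dpa out of the shared spread gave a call for both, with adjusted p = 5.66e-06 and 0.03, and the fit to the 2 groups alone called Solyc06g076570 as well (adjusted p = 0.0335). With 2 genes called higher and 2 lower, the 6 genes were not far from all tested genes, of which 33.2% were higher and 28.1% lower. The medians were -0.05 for the 6 genes and 0.04 over all genes.

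The 34 dpa libraries of rin/tdr4-1 were then compared with those of the single mutants rin-1 and tdr4-1. The sample titles do not say that the double mutant carries the same alleles as these lines. The sums of single differences below assume that it does. Against rin-1, 5 of the 6 genes were lower in rin/tdr4-1, from 18.3-fold for Solyc06g076570 to 141-fold for Solyc08g062340, with the plastid gene Solyc03g082420 64.5-fold lower (log2 difference -5.98, SE 0.15, adjusted p = 1.55e-18). Against tdr4-1, all 6 were lower, from 2.51-fold for Solyc06g076540 (-1.32, SE 0.36, adjusted p = 0.00245) to 275-fold for Solyc08g062340 (-8.02, SE 0.22, adjusted p = 3.72e-18). Among all tested genes 20.7% were called lower and 48.9% higher against rin-1 (31.9% and 33.1% with size factors), and 14.9% and 64.5% against tdr4-1 (35.7% and 36.1% with size factors). Solyc06g076540 differed from rin-1 by -0.31 (95% interval -1.07 to 0.45, adjusted p = 0.458), and it was called without replicate 3 of dml2-3 at 25 dpa (adjusted p = 0.031) and in the fit to these 2 groups alone (adjusted p = 0.00289).

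In all 6 genes the double mutant lay below the sum of the differences seen in rin-1 and tdr4-1. Adding both single differences to WT on the log2 scale gives 2216 FPKM for the plastid gene Solyc03g082420, and 36.7 FPKM was observed, 60.4-fold less (departure -5.88, SE 0.21, adjusted p = 7.84e-16). For the class II gene Solyc08g062340 the sum gives 3004 FPKM and 17.1 was observed, 175-fold less (-7.37, SE 0.31, adjusted p = 1e-14). Observed levels are here back-transformed means of log2 values.

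Among class I genes the departure was -7.02 for Solyc06g076560 (SE 0.24, adjusted p = 3.02e-16), -4.59 for Solyc06g076520 (SE 0.20, adjusted p = 1.59e-14) and -4.17 for Solyc06g076570 (SE 0.48, adjusted p = 1.23e-07). It was least for Solyc06g076540, at -1.48 (SE 0.52, adjusted p = 0.0152), where the sum gives 270 FPKM and 96.0 was observed. The level of that gene in the double mutant was not called different from WT, and its level in tdr4-1 was above WT. Departures below the sum were called in 19.9% of all tested genes and above it in 47.8% (30.7% and 31.6% with size factors), with a median of 0.36, against -5.23 for the 6 genes. All comparisons at 34 dpa above share the 3 WT libraries, except those between mutants.

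**Figure D3:**
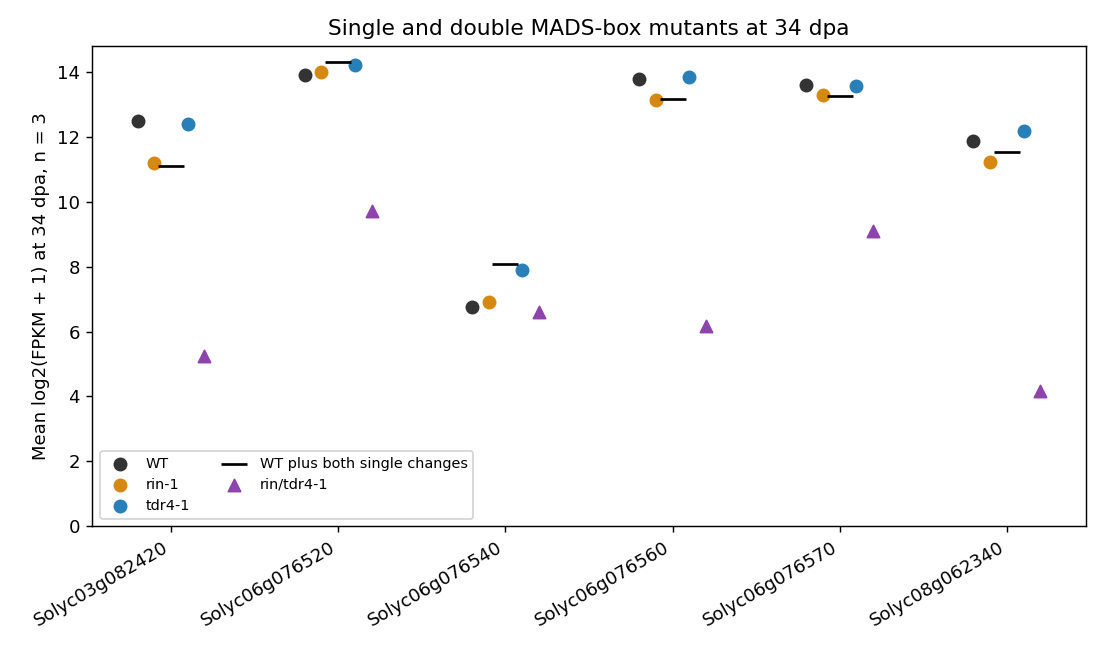
Mean log2(FPKM + 1) of the 6 genes at 34 dpa in WT, rin-1, tdr4-1 and rin/tdr4-1 (n = 3 each), with a bar at WT plus both single differences. The double mutant lies below the bar in all 6 genes, with departures of -1.48 for Solyc06g076540 and of -7.37 to -4.17 for the others.

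At 25 dpa, before the breaker stage, some of these genes were already above WT in both mutants sampled then. In dml2-3, 4 of the 6 genes were higher than in WT, 1 was lower and 1 was not called. Solyc06g076540 was at 62.24, 65.76 and 326.18 FPKM, against less than 1 FPKM in each WT library (log2 difference 6.10, SE 0.36, adjusted p = 1.15e-11). Solyc03g082420, the plastid gene, was at 126.70, 115.32 and 65.14 FPKM, 7.91-fold above WT (2.84, SE 0.15, adjusted p = 1.27e-12). Solyc08g062340, of class II, was at 117.69, 116.07 and 279.31 FPKM (1.54, SE 0.22, adjusted p = 3.98e-06). Solyc06g076520 was at 1554.42, 1523.84 and 2188.40 FPKM (0.82, SE 0.14, adjusted p = 3.95e-05). In these 4 genes every dml2-3 library was above every WT library.

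The other class I genes in dml2-3 at 25 dpa were not above WT. Solyc06g076560 was at 120.12, 122.00 and 228.80 FPKM and was called lower (-0.53, SE 0.17, adjusted p = 0.0102), although its ranges overlapped. Solyc06g076570 was at 226.23, 238.77 and 1079.12 FPKM, with a difference of -0.53 (95% interval -1.24 to 0.17, adjusted p = 0.189). The calls over the whole table comprised 26.7% of the tested genes as higher and 27.8% as lower, and the median of the 6 genes was 1.18.

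Replicate 3 of dml2-3 at 25 dpa was the highest of its group in 5 of the 6 genes and the lowest in the plastid gene. It was at 5.10 times the mean of replicates 1 and 2 in Solyc06g076540, 4.64 times in Solyc06g076570, 2.39 times in Solyc08g062340, 1.89 times in Solyc06g076560 and 1.42 times in Solyc06g076520, and at 0.538 times in Solyc03g082420. Of all tested genes, 2.5% deviated more in this library, in either direction on the log2 scale, than Solyc06g076540 and 2.9% more than Solyc06g076570. That share was 9.4% for Solyc08g062340, 14.7% for Solyc06g076560, 15.4% for Solyc03g082420 and 29.8% for Solyc06g076520. The deviation of this library was not confined to these genes. The libraries of dml2-3 at 25 dpa thus did not agree on where Solyc06g076570 stood against WT. Without replicate 3 this gene was called lower (-1.27, adjusted p = 1.59e-10), Solyc06g076560 differed by -0.84 (adjusted p = 9.79e-07), Solyc06g076540 by 5.32, Solyc08g062340 by 1.13 and the plastid gene by 3.13. The call of Solyc06g076560 ended without replicate 1 (-0.38, adjusted p = 0.0822) or 2 (-0.39, adjusted p = 0.077), and in the 2 groups alone (adjusted p = 0.186).

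In rin/tdr4-1 at 25 dpa, 5 of the 6 genes were higher than in WT and 1 was not called. Solyc06g076540 was at 46.06, 40.21 and 47.40 FPKM (log2 difference 4.80, SE 0.36, adjusted p = 7.81e-10). Solyc08g062340, of class II, was at 300.38, 249.77 and 288.15 FPKM, 5.20-fold above WT (2.37, SE 0.22, adjusted p = 1.6e-08). The gene for the plastid protein, Solyc03g082420, was at 53.48, 43.68 and 46.23 FPKM, 3.69-fold above (1.80, SE 0.15, adjusted p = 2.98e-09). None of these libraries overlapped with WT.

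Solyc06g076520 was at 2345.65, 1951.30 and 2224.61 FPKM in the double mutant at 25 dpa (1.14, SE 0.14, adjusted p = 1.16e-06). Solyc06g076570 was at 1127.03, 963.71 and 1137.54 FPKM (0.93, SE 0.34, adjusted p = 0.0384), with no overlap with WT. This call ended when any 1 of the 6 libraries was left out (adjusted p from 0.0598 to 0.0976) and when no filter was set (adjusted p = 0.0548). It held when replicate 3 of dml2-3 at 25 dpa was left out of the shared spread (0.93, SE 0.084, adjusted p = 9.73e-09). Solyc06g076560 was at 245.15, 207.15 and 241.85 FPKM, a difference of 0.09 (95% interval -0.26 to 0.43, adjusted p = 0.742). Of all tested genes 17.4% were called higher, and the median of the 6 genes was 1.47 against 0.02 overall. Both mutants share the WT libraries at 25 dpa as their control.

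Between 25 and 34 dpa, the period of the rise in WT, the genes fell in dml2-3. The plastid gene Solyc03g082420 fell 11.6-fold (log2 change -3.34, SE 0.15, adjusted p = 1.02e-12). The class I genes changed by -2.14 for Solyc06g076540 (adjusted p = 0.000115), -1.35 for Solyc06g076570 (adjusted p = 0.00377), -0.88 for Solyc06g076560 (adjusted p = 0.000381) and -0.42 for Solyc06g076520 (adjusted p = 0.0226), and the class II gene Solyc08g062340 by -0.84 (adjusted p = 0.00503). Lower calls made up 21.8% of all tested genes and higher calls 12.002% (16.6% and 16.4% with size factors), and the 6 genes had a median of -1.11.

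These falls in dml2-3 rested in part on replicate 3 at 25 dpa. Without it the changes were -3.63 for Solyc03g082420, -1.36 for Solyc06g076540, -0.62 for Solyc06g076570, -0.57 for Solyc06g076560 and -0.42 for Solyc08g062340, all called, and -0.25 for Solyc06g076520, not called (adjusted p = 0.0895). In a fit to the 2 groups alone, with that library in, the fall of the plastid gene was the only one of the 6 that was called. The call of Solyc06g076520 also ended with size factors, with rescaling to equal totals (TPM), with no filter, and without dml2-3 replicate 1 or 2 at 34 dpa (adjusted p from 0.0514 to 0.1985).

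In rin/tdr4-1, 5 of the 6 genes fell between the ages and Solyc06g076540 rose. The class II gene Solyc08g062340 fell 16.3-fold (log2 change -3.95, SE 0.22, adjusted p = 3.61e-12), from a mean of 279 ± 26.4 FPKM to 17.1 ± 0.679 FPKM. Solyc06g076560 changed by -1.68 (SE 0.17, adjusted p = 3.16e-08), Solyc06g076520 by -1.36 (SE 0.14, adjusted p = 4.46e-08) and Solyc06g076570 by -0.96 (SE 0.34, adjusted p = 0.0191). Solyc06g076540 rose by 1.09 (SE 0.36, adjusted p = 0.0142), from a mean of 44.6 ± 3.82 FPKM to 96.1 ± 7.11 FPKM. The directions within the class I cluster thus differed in this mutant too.

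The plastid gene Solyc03g082420 changed in rin/tdr4-1 by -0.37 (SE 0.15, adjusted p = 0.0393). This call ended without a filter and without 5 of the 6 libraries in turn (adjusted p from 0.0513 to 0.156), and that of Solyc06g076570 ended without double mutant replicate 1 or 3 at 25 dpa (adjusted p = 0.0509 and 0.0521). Both held when replicate 3 of dml2-3 at 25 dpa was left out of the shared spread (adjusted p = 0.000131 and 2.73e-09). In the fit to all 27 libraries, 28.6% of all tested genes were higher and 30.1% lower, and the median of the 6 genes was -1.16.

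The difference between each mutant's age change and that of WT was tested directly and was called below 0 in all 6 genes in both mutants. For dml2-3 it ran from -12.04 for the plastid gene Solyc03g082420 (SE 0.21, adjusted p = 6.59e-21) to -4.39 for Solyc06g076520 (SE 0.20, adjusted p = 2.64e-14). For rin/tdr4-1 it ran from -10.08 for the class II gene Solyc08g062340 (SE 0.31, adjusted p = 5.2e-17) to -4.95 for Solyc06g076540 (SE 0.52, adjusted p = 2.71e-08). Differences below 0 were called in 17.0% of all tested genes for dml2-3, beside 52.1% above 0 (32.6% and 35.2% with size factors). For rin/tdr4-1 the shares were 14.5% and 55.9% (31.1% and 34.2% with size factors). The medians of the 6 genes were -6.94 and -6.57, against 0.45 and 0.53 over all genes.

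Ordered by mean level over the 9 groups, Solyc03g082420, Solyc06g076520, Solyc06g076560, Solyc06g076570 and Solyc08g062340 had the 34 dpa groups of WT, tdr4-1, nor-1 and rin-1 as their 4 highest. For the plastid gene the order was WT, tdr4-1, nor-1 and rin-1, and the step from WT to tdr4-1 (adjusted p = 0.671) and that from tdr4-1 to nor-1 (adjusted p = 0.105) were not called. For Solyc06g076520 the order was nor-1, tdr4-1, rin-1 and WT, with none of its 3 steps called (adjusted p from 0.172 to 0.584), and for Solyc06g076570 it was WT, tdr4-1, rin-1 and nor-1, again with none called (adjusted p from 0.489 to 0.975). The step from these 4 groups to the next was called in each of the 5 genes, by 2.83 to 4.58 on the log2 scale. The same values set the order, so the steps are descriptive, and they were not counted over all genes. Groups that are not neighbours in the order could still differ. In Solyc06g076520, nor-1 was called different from WT (adjusted p = 0.0117) and from rin-1 (adjusted p = 0.0481). In the plastid gene, nor-1 was called different from WT (adjusted p = 0.028).

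A pair of these genes had called steps among their upper groups. Solyc06g076560 was not called different between tdr4-1 and WT (adjusted p = 0.905) and stepped down to rin-1 and then to nor-1 (1.504, adjusted p = 1.74e-07). The class II gene Solyc08g062340 had no called step among tdr4-1, nor-1 and WT (adjusted p = 0.95 and 0.258) and stepped down to rin-1. Among the lower 5 groups the order differed from gene to gene, and dml2-3 at 34 dpa was lowest for Solyc03g082420 and Solyc06g076570 and rin/tdr4-1 at 34 dpa for Solyc06g076520, Solyc06g076560 and Solyc08g062340. Of these, the lowest step was not called for Solyc06g076520 (from WT at 25 dpa, adjusted p = 0.183) and for Solyc06g076560 (from dml2-3 at 34 dpa, adjusted p = 0.353). For Solyc06g076540 the order was nor-1, tdr4-1, dml2-3 at 25 dpa, rin-1, WT at 34 dpa and rin/tdr4-1 at 34 dpa, and the 3 steps from dml2-3 at 25 dpa to the double mutant were not called (adjusted p from 0.716 to 0.806). The place of dml2-3 at 25 dpa in this order rests on its replicate 3, since replicates 1 and 2 averaged 64.0 FPKM, below the double mutant at 34 dpa (96.1 FPKM) and above it at 25 dpa (44.6 FPKM).

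The make-up of the class I transcripts shifted between groups, as seen in the plot of shares by group. Shares here are of the summed FPKM of the 4 genes, so they are on a per-length scale. Whether these genes, listed as 1 cluster, share reads was not tested, and how the upstream counting would split such reads is not given in the sources used here, so the levels and shares of single class I genes are uncertain to that extent. In WT, Solyc06g076520 held 55.7 ± 1.21% at 25 dpa and 36.3 ± 2.33% at 34 dpa, while Solyc06g076560 held 12.3 ± 0.0625% and 33.9 ± 1.95%. Solyc06g076570 held 31.9 ± 1.14% and 29.5 ± 4.14%, ranges that overlapped. The 34 dpa cluster of WT was thus split almost evenly between 3 genes.

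In tdr4-1 and rin-1, Solyc06g076560 held 31.8 ± 0.754% and 25.5 ± 0.17%. In nor-1, Solyc06g076540 held 16.9 ± 0.363% and Solyc06g076560 8.27 ± 0.234%, while the former held at most 0.285% in a WT library at 34 dpa. In dml2-3 at 34 dpa Solyc06g076520 held 83.4 ± 0.378%. In rin/tdr4-1 at 34 dpa it held 54.0 ± 0.504%, and Solyc06g076570 held 35.3 ± 0.178%. The summed class I levels of these 2 groups, 1549 ± 57.3 FPKM and 1564 ± 71.9 FPKM, differed by less than their SD, while the shares within them did not overlap. These shares were not tested.

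**Figure D4:**
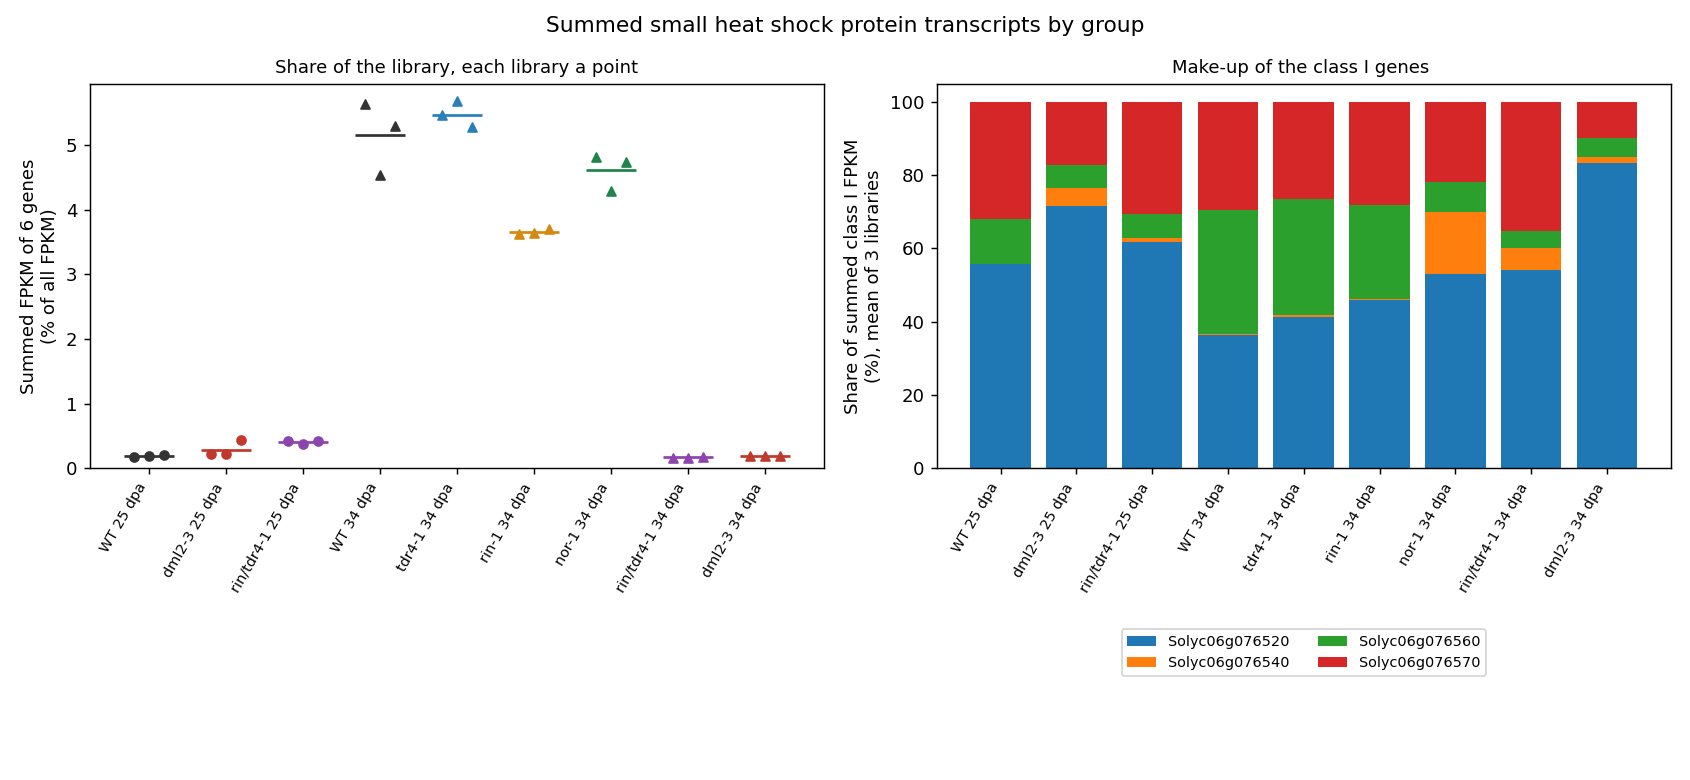
Left, the share of all FPKM held by the 6 genes in each library (points, with the group mean as a line); right, the mean share of each class I gene in the summed class I FPKM of its group (n = 3). WT, tdr4-1, nor-1 and rin-1 at 34 dpa lie at 3.66% to 5.47% on average and the other groups at or below 0.405%.

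Across the 27 libraries the genes other than Solyc06g076540 followed each other, with Pearson r of 0.907 to 0.983 between any pair of the 5 on the log2(FPKM + 1) scale, while Solyc06g076540 correlated with them at 0.469 to 0.692. These values are descriptions: the libraries are 9 groups of 3, in which 4 groups at 34 dpa are high and the other 5 low, and no r within those sets was taken. The highest r was between Solyc06g076520 and the class II gene Solyc08g062340, whose identifier is on another chromosome.

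Among the other 18900 tested genes, those most like each class over the 27 libraries were named by the highest r with its mean log2(FPKM + 1). For the plastid gene Solyc03g082420 these were Solyc03g118060.3 (r = 0.989) and Solyc03g117630.1 (0.984), and 155 genes had r above 0.9. For the class I mean they were Solyc09g015020.1 (0.989) and again Solyc03g117630.1 (0.988), with 156 genes above 0.9, and for the class II gene they were Solyc01g102960.3 (0.986) and Solyc08g062437.1 (0.977), with 72. Solyc03g118060.3 went from 1.06 ± 0.503 FPKM in WT at 25 dpa to 955.9 ± 68.8 FPKM at 34 dpa, and was at 1.38 ± 0.231 FPKM in dml2-3 at 34 dpa and 1.99 ± 1.07 FPKM in rin/tdr4-1 at that age. In nor-1 it averaged 1616 ± 34.5 FPKM. The files used here give no name for any of these genes.

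Of the 31 identifiers within 5 places of the small heat shock protein genes, 18 were tested, and in WT between 25 and 34 dpa 0 were called higher by limma (0 also at an unadjusted p under 0.05), while 14 were called lower (61.7% of all tested genes were). Of these 14, 7 fell by 2-fold or more, and Solyc08g062330 fell the most (log2 change -2.99, SE 0.10, adjusted p = 7.99e-17). Inside the class I run, Solyc06g076550 fell from 5.32 ± 0.568 to 0.243 ± 0.0462 FPKM (log2 change -2.34, SE 0.14, adjusted p = 1.14e-12). In the mutants 15 of the 18 were called higher in dml2-3 at 34 dpa (57.0% of all tested genes) and 13 in rin/tdr4-1 (61.3%), against 6 and 5 of the 6 small heat shock protein genes called lower there. The shares of the neighbours lay near or above those of all genes. Solyc08g062437.1, which lies beyond these 5 places but between the listed class II identifiers, averaged 40.9 ± 0.969 FPKM in WT at 25 dpa and 2615 ± 132 FPKM at 34 dpa.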

How the data were processed

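The authors deposited 1 table of FPKM values for 34075 genes in 27 libraries, with replicates in separate columns. The submitters' processing notes name Trimmomatic, STAR 2.5.4b, RSEM and DESeq2, with no role or order, and the genome build is not given in the sources used here. On the FPKM scale a few very abundant genes lower the reading of the rest. Groups and replicate numbers came from the sample titles.

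From these values log2(FPKM + 1) was taken, and genes that reached 1 FPKM in 3 libraries or more, 18906 in number, entered the tests. R 4.3.3 with limma 3.58.1 (empirical Bayes with trend) fitted a mean for each of the 9 groups, which share 1 estimate of the spread. P-values were adjusted by Benjamini-Hochberg over the genes kept, for 16 contrasts and all 36 pairs of groups, and calls are at 0.05. The fit was tested on simulated data. Folds are ratios of mean FPKM.

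The genes and lists were chosen with earlier results of these data known. Named besides them are the 2 genes of most similar pattern per class. Among the 5 identifiers on each side of each run, 7 were called at 2-fold or more in WT, and 2 of these are described. Other heat shock genes could not be listed, since no table used here names the identifiers. Alternatives were the pseudocount (0.1), the filter (none, or a mean of 5 FPKM), the scaling (size factors, TPM, quantile), a fit to the compared groups alone, a replicate block and leaving out each library.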

Additional observations from a re-analysis of the deposited data

Results flagged for a closer look

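The change between 25 and 34 dpa differed from that of WT in all 6 small heat shock protein genes in both mutants sampled at both ages, by the limma test of the difference between the 2 age changes on the log2(FPKM + 1) scale. In dml2-3 the difference was -12.04 for Solyc03g082420, -4.39 for Solyc06g076520, -8.19 for Solyc06g076540, -6.91 for Solyc06g076560, -5.82 for Solyc06g076570 and -6.97 for Solyc08g062340 (adjusted p from 6.59e-21 to 5.54e-10). In rin/tdr4-1 it was -9.07 for Solyc03g082420, -5.33 for Solyc06g076520, -4.95 for Solyc06g076540, -7.72 for Solyc06g076560, -5.42 for Solyc06g076570 and -10.08 for Solyc08g062340 (adjusted p from 4.67e-19 to 2.71e-08). The values of both mutants share the WT libraries. Without replicate 3 of dml2-3 at 25 dpa the dml2-3 values ran from -12.33 to -4.22, each still called. Since Solyc06g076540 was below 1 FPKM in WT at 25 dpa, its values depend on the pseudocount.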

How the results depend on the processing

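Of 1530 alternative values for 96 results (6 genes in 16 contrasts), 1461 kept their direction and their side of the threshold, 43 lost and 11 gained a call, and 15 changed sign, with no call before or after. The number of the 6 genes called went from 3 to 1 in rin-1 against WT with quantile scaling, and from 6 to 1 in dml2-3 between ages in a fit to those groups alone. In tdr4-1 against WT it was 1, and 0 to 3 with single libraries left out. Signs changed in rin-1 against WT for Solyc06g076520 (-0.20 with size factors, -0.040 with TPM), Solyc06g076540 (-0.13 with size factors, -0.022 with quantile scaling) and Solyc06g076570 (0.34 with quantile scaling), and in tdr4-1 against WT for Solyc03g082420 (0.0042) and Solyc06g076570 (0.075) with size factors and Solyc06g076560 (-0.071) with quantile scaling. With single libraries left out, values that changed sign ran from -0.062 to 0.19 for Solyc06g076520 and from -0.052 to 0.35 for Solyc06g076540 in rin-1, from -0.36 to 0.040 for Solyc06g076540 in rin/tdr4-1 at 34 dpa, and from -0.12 to 0.16 for Solyc06g076560 and from -0.10 to 0.046 for Solyc06g076570 in tdr4-1. The cause was not tested. Same-numbered libraries of different groups deviated together with r of -0.173 to 0.139 (4 of 108 above 0.1). For libraries of different number r was -0.215 to 0.309 (3 of 216 above 0.1). Of 27 libraries, 13 correlated best with their own number. Whether the numbers pair the samples was not settled by this, since weak correlations cannot show that no pairing existed. With the replicate block, the count in WT between ages stayed at 6 and no call of the 96 changed, and over all genes 14531 instead of 14555 were called in WT. Depth is unknown, so precision rests on the spread of 3 libraries per group. Some fold changes moved by over 1.5 times with their calls kept. Quantile scaling gave a WT age change of 3.14 for Solyc06g076520 and 3.52 for Solyc06g076570, and size factors gave -2.01 for Solyc06g076540 between rin/tdr4-1 and tdr4-1. Such moves were not limited to these results. Against WT at 34 dpa, Solyc06g076520 ran over the alternatives from -4.09 to -2.50 in dml2-3 and from -4.78 to -3.31 in rin/tdr4-1. The WT age change of Solyc06g076540 ran from 5.86 to 7.21.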
